A study of Mus musculus with 20 samples.

Results

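The nuclear genes for the mitochondrial respiratory chain and the ATP synthase were followed in the livers of mice on a high-fat diet with or without an extract of maple syrup. Members were the genes whose symbol begins with Ndufa, Ndufb, Ndufc, Ndufs, Ndufv, Uqcr, Cox4i, Cox5, Cox6, Cox7, Cox8 or Atp5, with the Ndufaf assembly factors left out, or is Sdha, Sdhb, Sdhc, Sdhd, Cyc1 or Cycs. Only probe sets that the platform annotation ties to 1 gene were used, and each gene was represented by the probe set that was brightest on average on the 20 arrays. This gave 84 of the 18193 genes on the array: 34 of complex I, 4 of complex II, 9 of complex III, 19 of complex IV, 17 of the ATP synthase and the electron carrier gene Cycs. Ndufa4 and Ndufa4l2 were counted with complex IV, where the Ndufa4 protein is now placed.

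The MSXH group held 10 male C57BL/6J mice whose diet held 45 kcal% fat and 0.05% of the extract, named MSXH in the labels. The HFD group held 10 male C57BL/6J mice on the same 45 kcal% diet without the extract. All mice were bought at 3 weeks of age, acclimated on a low-fat diet with 10 kcal% fat, fed their test diet for 4 weeks and sampled on day 30 after a 16 h fast, and they are labelled as 8 weeks old. Each array measured the total liver RNA of 1 mouse with a 3' expression array, and the other diets of the study were not analysed here.

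The respiratory chain passes electrons along the inner mitochondrial membrane. Complex I takes them from NADH and complex II from succinate, complex III hands them to cytochrome c, and complex IV gives them to oxygen. The protons pumped on the way drive the ATP synthase. Liver cells are rich in mitochondria and burn fatty acids through this chain during fasting. Most subunits are encoded in the nucleus, and nuclear respiratory factor 1 (NRF1), GABP, YY1 and the oestrogen-related receptors are known to bind promoters of such genes.

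RefSeq promoters of GRCm38.p6, reaching 250 bases before and 50 bases after the start of transcription, were at hand for 68 of the 84 members, with 73 promoters in all. Both strands were searched for the letters GCGCANGCG (NRF1), CCGGAAGT (GABP), AAGATGGCG (YY1) and AAGGTCA (oestrogen-related receptors). None of the 4 strings contains another, and matches on both strands that overlap are counted as 1 place. The NRF1 letters stood in 20 of the 73 promoters, or 27.4%, against 6.25% of all 32851 promoters of the table. Shares for YY1 were 8.22% of the members' promoters and 1.40% of all promoters, for the oestrogen-related receptors 10.96% and 4.72%, and for GABP 6.85% and 3.89%. By complex, the NRF1 letters stood in 7 of 18 promoters of the ATP synthase, 7 of 33 of complex I, 2 of 3 of complex II, 2 of 5 of complex III and 1 of 13 of complex IV, and in the promoter of Cycs. A match is a description of the sequence and not a measured binding site.

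Sequences before the start of transcription are given for members that carry results below or hold several matches. Each reads 5′ to 3′ on the gene's own strand and ends at the base before the start, and capitals mark the NRF1 letters. Ndufs5 lies at chr4:123718187-123718306 on the minus strand, Sdha at chr13:74350241-74350360 (minus), Cox6a1 at chr5:115348959-115349138 (minus), Atp5b at chr10:128083187-128083306 (plus), Cox7a2l at chr17:83514334-83514453 (minus) and Cycs at chr6:50566570-50566689 (minus).
Ndufs5: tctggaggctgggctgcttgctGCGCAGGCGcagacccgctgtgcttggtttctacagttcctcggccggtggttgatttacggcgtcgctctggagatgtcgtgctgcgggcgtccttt
Sdha: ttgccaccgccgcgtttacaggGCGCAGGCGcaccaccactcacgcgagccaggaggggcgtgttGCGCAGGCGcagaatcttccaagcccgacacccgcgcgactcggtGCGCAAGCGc
Cox6a1: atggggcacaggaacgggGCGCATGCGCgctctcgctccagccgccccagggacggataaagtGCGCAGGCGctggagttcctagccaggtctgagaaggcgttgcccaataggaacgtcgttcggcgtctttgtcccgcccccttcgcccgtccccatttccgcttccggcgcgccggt
Atp5b: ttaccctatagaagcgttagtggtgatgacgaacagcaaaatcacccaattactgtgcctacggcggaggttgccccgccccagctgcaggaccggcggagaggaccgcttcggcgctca
Cox7a2l: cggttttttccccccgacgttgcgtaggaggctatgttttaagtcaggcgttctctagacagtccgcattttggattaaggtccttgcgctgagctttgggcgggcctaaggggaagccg
Cycs: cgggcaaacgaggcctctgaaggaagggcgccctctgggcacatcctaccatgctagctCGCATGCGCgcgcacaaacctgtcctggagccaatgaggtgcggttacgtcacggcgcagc
Sdha, the flavoprotein subunit of succinate dehydrogenase, held the NRF1 letters 3 times within this stretch. Cox6a1, the liver form of a complex IV subunit, held them at 2 places, Ndufs5, an accessory subunit of complex I, at 1, and Cycs at 1, on the opposite strand. For Atp5b and Cox7a2l these letters were not in the window shown.

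The deposited values were on a log2 scale and differed very little between mice: the median SD of a probe set over the 20 arrays was 9.33e-06 log2 units. Folds were therefore not read from them. Single mice are given as deviations from the gene's own mean, in millionths of a log2 unit, and group differences as Hedges' g, MSXH minus HFD, which is the difference between the group means divided by the SD within groups, with a small-sample correction. Values of members at or above 10 were deposited in steps of 0.01 millionths. The array medians, relative to their mean, ran between -61.6 and 73.7 millionths in MSXH mice, and between -55.5 and 115 millionths in HFD mice. These offsets are larger than the SD of most members. Shifting arrays to the same median therefore adds to them an offset common to all genes of an array, which matters below. For members with a small SD the sign after this shift mostly follows that offset. Counts after the shift therefore say little about the members themselves. Hepatocyte markers were present, with 7 of 7 measured genes above the filter and levels between 7.203 and 14.7. Of skeletal and heart muscle markers 3 of 8 passed, of adipose markers 0 of 4, and of testis markers 1 of 4, which was Prm1. Of exocrine pancreas markers 2 of 3 passed, Cela1 at 8.66 and Prss2 at 7.53. Endothelial markers were higher in MSXH livers in 6 of 6 genes, with a median g of 0.45 and no call. After quantile normalization 2 of 6 were lower, with a median g of 0.03. As deposited, Kupffer cell markers were lower in 4 of 5 genes, stellate cell markers in 1 of 4 and lymphocyte markers in 2 of 2. Bile duct and red blood cell markers were each lower in 1 of 2. The part of these cell types in the results below was not tested.

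Genes were tested when their mean reached 6.505, the median of all probe sets on the array, which left 11728 genes and 80 of the 84 members. The 4 members below it were Ndufb4 at 5.95, an accessory subunit of complex I, and the complex IV isoforms Cox7b2 at 5.56, Cox7a1 at 6.26 and Cox8b at 6.29. Complex I had a median level of 11.4, complex II 11.3, complex III 11.6, complex IV 10.8 and the ATP synthase 12.0, all on the log2 scale. The complex IV median took in 8 isoforms of other tissues with levels between 5.56 and 7.87. The 10 complex IV subunits that liver uses lay between 11.9 and 13.8, except Cox7c at 6.79. The highest levels per complex were 12.7 for Ndufa1, 11.9 for Sdhb, 13.7 for Uqcrb, 13.8 for Cox6a1 and 13.4 for Atp5g3, and Cycs was at 12.3. Levels of different probe sets depend on their probes and are not amounts of RNA.

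Most members varied little from mouse to mouse. The SD within groups lay below that of the median gene in 74 of 80 members, with a median of 2.24 millionths against 14.8 millionths over all genes tested. Among the 534 other genes at a level of at least 11.01, the lower quartile of the members, the median SD was 12.1 millionths. Atp5b, the catalytic beta subunit of the ATP synthase, had the smallest SD of the members at 0.127 millionths. Cycs, which encodes cytochrome c, had the largest at 44.8 millionths, above the other members and at the 76.5th percentile of all genes.

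**Figure D1:**
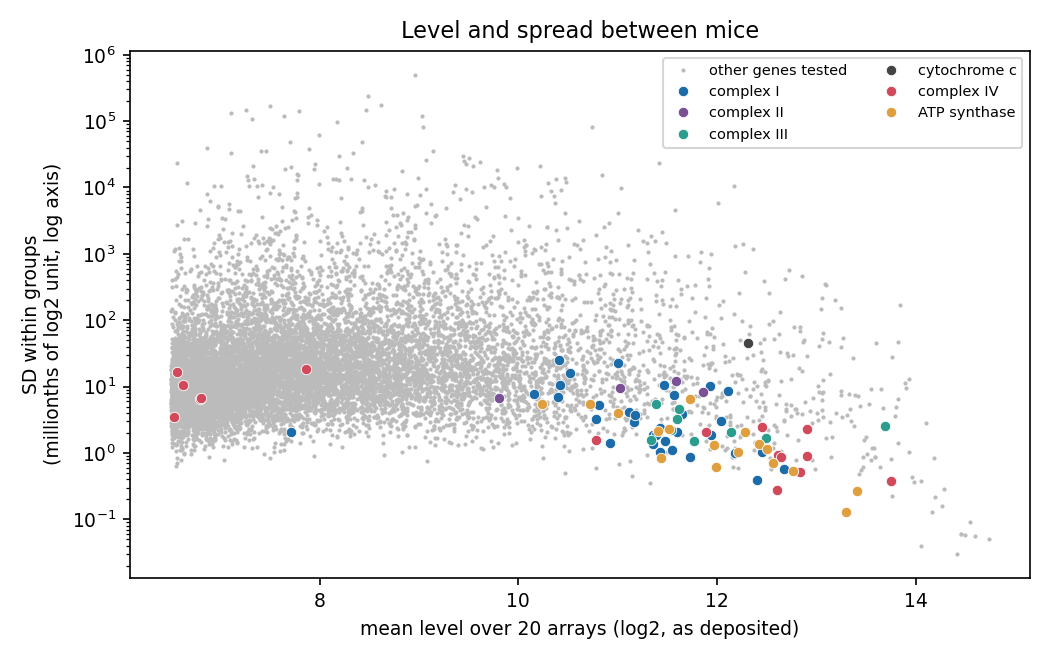
Mean level over 20 arrays (log2, as deposited) against the SD within groups (millionths of a log2 unit, log axis) for every gene tested, with the members coloured by complex. Most members sit at high levels and small SDs, with Atp5b lowest at 0.127 millionths and Cycs highest of the members at 44.8 millionths.

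No member passed the test between the diets after correction. By limma with Benjamini-Hochberg adjustment over all 11728 genes, 0 of 80 members and 0 of 11728 genes (0.0%) were called, and the adjusted p of every member was 0.9998. An exact Wilcoxon rank-sum test also called 0.0% after adjustment. Without adjustment, limma gave p under 0.05 to 1 member lower in MSXH, Ndufs5, where 1.74% of all genes had this, and to 1 member higher, Cox7a2l, where 1.88% had it. The exact Wilcoxon test, two-sided and unadjusted, gave p under 0.05 to 6 members lower in MSXH (7.50%, beside 1.74% of all genes) and to 1 higher (1.25%, beside 1.67%). The 6 were Atp5b, Atp5g1, Atp5j2, Ndufs5, Ndufv1 and Cox6b1. With limma's fit on each gene's own SD, without moderation, 6 members were lower (1.86% of all genes) and 1 higher (1.89%) at this unadjusted level, with Cox7a2 in place of Ndufv1. Cox7a2, a complex IV subunit that was named after its values were seen, had a g of -0.90 (95% interval -1.82 to 0.02) and an exact Wilcoxon p of 0.0854. In none of the 84 members were the groups separate, and 0.0% of all genes had groups that did not overlap.

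The means leaned to lower values in MSXH livers. The mean was lower in MSXH in 59 of 80 members (73.8%), against 50.6% of all genes tested, but in 1 of 80 members once arrays were shifted to the same median and in 15 of the 31 members left with any spread after quantile normalization. Over all genes, 8.93% were lower after that shift, with a median g of 0.29 beside 0.30 for the members, and 49.5% were lower after quantile normalization. The median g after quantile normalization was 0 up to rounding (3.3e-13 for members, 2.0e-12 for all genes), and such differences were counted by their sign. With genes scaled and arrays then centred, 58 of 80 members (72.5%) were lower, against 48.8% of all genes, and the members' median g was -0.25. As deposited, the median g of the members was -0.28 and that of all genes -0.01. That of the 534 other genes of similar level was -0.08, with 57.3% of them lower. By complex, 29 of 33 members of complex I were lower, 3 of 4 of complex II, 6 of 9 of complex III, 8 of 16 of complex IV and 12 of 17 of the ATP synthase, while after the shift to the same median 0 were lower in each of these. Median g was -0.29 in complex I, -0.24 in complex II, -0.31 in complex III, 0.01 in complex IV and -0.30 in the ATP synthase. In whole liver, fewer cells of a type and less RNA per cell cannot be told apart.

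**Figure D2:**
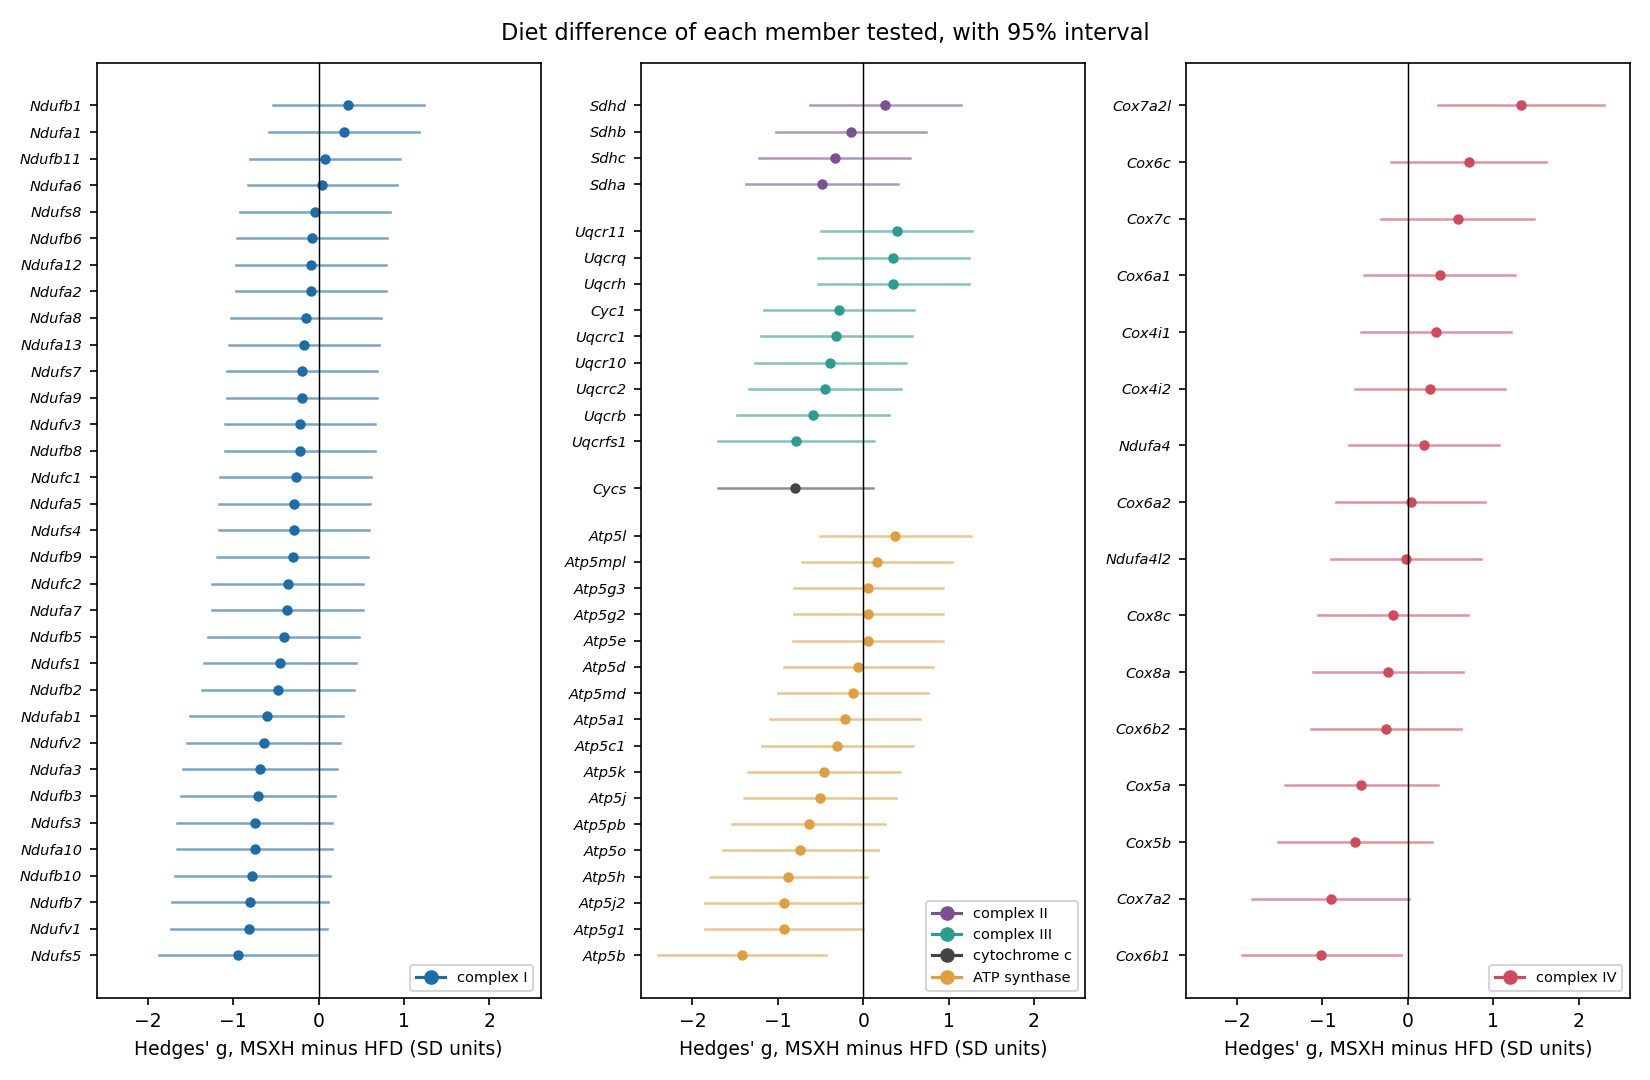
Hedges' g (MSXH minus HFD, in SD units) of the 80 members tested, with 95% intervals, ordered within complex I, complexes II and III, cytochrome c and the ATP synthase, and complex IV. As deposited, points left of 0 prevail in complex I (29 of 33) and complex IV splits evenly (8 of 16). After shifting arrays to the same median 0 members of either lay left of 0, but that sign mostly follows the array offsets.

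Complex I is the largest of the chain. Its catalytic core carries the flavin and iron-sulfur centres, and all 6 core genes measured (Ndufv1, Ndufv2, Ndufs1, Ndufs3, Ndufs7 and Ndufs8) had a lower mean in MSXH, with a median g of -0.55, whereas 0 of 6 were lower after the shift to the same median. Of the 27 accessory subunits tested, 23 were lower as deposited and 0 after the shift, with a median g of -0.28 as deposited. With genes scaled and arrays centred, 6 of 6 core genes and 23 of 27 accessory subunits were lower. The division into core and accessory subunits was made after values were seen.

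Ndufs5 had the lowest g of complex I. Its deviations ran between -13.7 and 3.25 millionths in MSXH livers, with a median of -2.10, against -13.9 to 17.9 in HFD livers with a median of 4.99. All 10 MSXH mice lay below the HFD median, yet the lowest mouse of all was HFD replicate 3, so the groups overlapped. Its g was -0.94 (95% interval -1.87 to -0.02), with an unadjusted limma p of 0.0399 and an exact Wilcoxon p of 0.0288. The limma p lay between 0.00526 and 0.0801 when single arrays were left out.

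Ndufv1, the flavoprotein that accepts electrons from NADH, ran between -2.07 and 2.04 millionths in MSXH livers (median -0.62) and between -0.622 and 2.64 in HFD livers (median 0.22). The lower part of the range was held by MSXH mice, of which 8 lay below the HFD median. Its g was -0.81 (-1.73 to 0.10), or -1.23 without MSXH replicate 10, with an unadjusted limma p of 0.244 and an exact Wilcoxon p of 0.0500, and 3 of 3 probe sets had the same sign. Ndufs1, the large iron-sulfur subunit, had a g of -0.45 (-1.34 to 0.44), or -0.69 without HFD replicate 3. The highest g of complex I was 0.35 (-0.54 to 1.23) for Ndufb1, an accessory membrane subunit, between 0.17 without HFD replicate 7 and 0.56 without HFD replicate 3. Its deviations were -2.71 to 3.03 millionths in MSXH livers and -3.99 to 3.11 in HFD livers, with largely the same range in both.

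Complex II links the citric acid cycle to the chain. Sdha ran between -17.9 and 9.23 millionths in MSXH livers (median -0.55) and between -29.0 and 18.4 in HFD livers (median 0.98), the lowest mouse being HFD replicate 10. Its g was -0.48 (-1.37 to 0.41), or -0.97 without that mouse, and 2 of 3 probe sets above the filter had this sign. Sdhb, the iron-sulfur subunit, had a g of -0.14 (-1.02 to 0.74), which turned sign when single arrays were left out, between -0.45 without MSXH replicate 1 and 0.08 without MSXH replicate 7. Sdhd, a membrane anchor, had the highest g of the complex at 0.26 (-0.62 to 1.14), with 0.06 without MSXH replicate 10 and 0.47 without HFD replicate 8. Its ranges were -7.52 to 19.7 millionths in MSXH livers and -17.3 to 14.8 in HFD livers. No member of complex II had an unadjusted p under 0.05 by limma or by the exact Wilcoxon test.

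In complex III the 4 core and redox subunits, Uqcrc1, Uqcrc2, Uqcrfs1 and Cyc1, had lower means in MSXH, with a median g of -0.38, whereas 2 of the 5 small subunits were lower and the median g was 0.35. After the shift to the same median, 0 of 4 and 0 of 5 were lower. Uqcrfs1, the Rieske iron-sulfur protein, had the lowest g at -0.79 (-1.70 to 0.12), with -2.56 to 2.49 millionths in MSXH livers (median -1.31) and -1.18 to 2.39 in HFD livers (median 0.49). Cyc1, cytochrome c1, had a g of -0.29 (-1.17 to 0.59), between -0.58 without MSXH replicate 10 and -0.12 without HFD replicate 8. Uqcrc1, a core protein, had a g of -0.31 (-1.20 to 0.57), between -0.48 without MSXH replicate 4 and -0.12 without HFD replicate 4. Uqcr11, a small subunit, had the highest g at 0.39 (-0.49 to 1.27), between 0.15 without HFD replicate 9 and 0.63 without HFD replicate 2. Its MSXH mice lay between -1.19 and 1.51 millionths and its HFD mice between -5.98 and 3.49, so that HFD mice held both ends.

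Cycs spread more than any other member. MSXH livers ran between -120 and 35.0 millionths (median 6.57) and HFD livers between -26.3 and 77.5 (median 12.7). The 4 lowest of the 20 mice were MSXH mice, and the other 6 MSXH mice lay within the HFD range. The g was -0.80 (-1.71 to 0.12), with an unadjusted limma p of 0.0745 and an exact Wilcoxon p of 0.248, and 3 of 3 probe sets above the filter had this sign.

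Complex IV was divided between lower and higher members. The 10 subunits that liver uses, among them Cox4i1, Cox5a and Ndufa4, were lower in 5 and higher in 5, with a median g of -0.02 and 0 of 10 lower after the shift to the same median. Cox6b1, which faces the intermembrane space, had the lowest g. It ran between -3.93 and 1.15 millionths in MSXH livers (median -1.37) and between -5.30 and 4.59 in HFD livers (median 2.17). All 10 MSXH mice lay below the HFD median, and the lowest mouse of all was HFD replicate 3. Its g was -1.02 (-1.95 to -0.08), with an unadjusted limma p of 0.0502 and an exact Wilcoxon p of 0.0232, and both probe sets had this sign. Without single arrays its g lay between -1.70, without HFD replicate 3, and -0.90.

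Cox7a2l encodes a protein that joins complexes III and IV into supercomplexes, and C57BL/6 mice are known to carry a shortened form of it. It had the highest g of all members, 1.33 (0.36 to 2.30). MSXH livers ran between -2.78 and 3.93 millionths (median 0.90) and HFD livers between -2.84 and 1.04 (median -1.13). Of the MSXH mice 9 lay above the HFD median and 1, replicate 7, below it. The unadjusted limma p was 0.0293, between 0.00794 and 0.0580 without single arrays, and the exact Wilcoxon p was 0.00559. All 3 probe sets had this sign. After the shift to the same median g was 0.34, near the median g of 0.30 for members and 0.29 for all genes. The sign after that shift therefore says little about Cox7a2l itself. After quantile normalization g was 0.19. Cox4i1, the widespread form of subunit IV, had a g of 0.33 (-0.55 to 1.21), between 0.15 without MSXH replicate 10 and 0.52 without HFD replicate 10, and Cox5a, subunit Va, -0.54 (-1.44 to 0.35).

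Isoforms of other tissues had levels between 5.56 and 7.87. Cox8c, known from testis, was the highest at 7.87, above the median gene tested at 7.67. Ndufa4l2 was at 6.81, and Cox4i2, Cox6a2 and Cox6b2 passed the filter narrowly at 6.54, 6.63 and 6.57, while Cox7a1 and Cox8b, known from muscle, did not. Their liver partners Cox4i1, Cox6a1, Cox6b1, Cox7a2 and Cox8a all passed, at 12.6, 13.8, 12.5, 12.8 and 11.9. Cox7c, which liver does use, was read by a probe set at only 6.79. The 3 genes for the c subunit, Atp5g1, Atp5g2 and Atp5g3, which encode the same mature protein, all passed, at 11.4, 10.7 and 13.4.

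In the ATP synthase, 4 of 5 genes of the F1 head and central stalk and 4 of 4 of the peripheral stalk had lower means in MSXH, with median g of -0.21 and -0.69, and 0 of 5 and 0 of 4 after the shift to the same median. The c-ring genes were lower in 1 of 3 and other membrane subunits in 3 of 5, again 0 after the shift. Atp5b had the lowest g of all members at -1.42 (-2.40 to -0.44). Its deviations ran between -0.314 and 0.0960 millionths in MSXH livers (median -0.13) and between -0.104 and 0.296 in HFD livers (median 0.10). All 10 MSXH mice lay below the HFD median and the groups overlapped. The exact Wilcoxon p was 0.00547 and the unadjusted limma p was 0.766. By its construction limma moves each gene's SD towards a common one, here 7.36e-06 log2 units (7.36 millionths), which far exceeds the 0.127 millionths of Atp5b.

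Atp5g1 ran between -1.79 and 1.48 millionths in MSXH livers (median -0.51) and between -0.935 and 1.16 in HFD livers (median 0.64), with 9 MSXH mice below the HFD median. Its g was -0.93 (-1.85 to -0.01), the exact Wilcoxon p 0.0413 and the unadjusted limma p 0.274. Atp5j2, the membrane subunit f, ran between -2.30 and 0.624 millionths in MSXH livers (median -0.48) and between -2.48 and 2.67 in HFD livers (median 1.03). All 10 MSXH mice lay below the HFD median, with a g of -0.93 (-1.85 to -0.0046), or -1.40 without HFD replicate 10, an exact Wilcoxon p of 0.0433 and an unadjusted limma p of 0.146, and 2 of 3 probe sets had this sign. Atp5o, which joins the peripheral stalk to the head, had a g of -0.74 (-1.64 to 0.17). The highest g was 0.37 (-0.51 to 1.26) for Atp5l, the membrane subunit g, between 0.13 without HFD replicate 9 and 0.58 without HFD replicate 2. Its ranges were -1.13 to 1.43 millionths in MSXH livers and -3.54 to 1.89 in HFD livers.

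**Figure D3:**
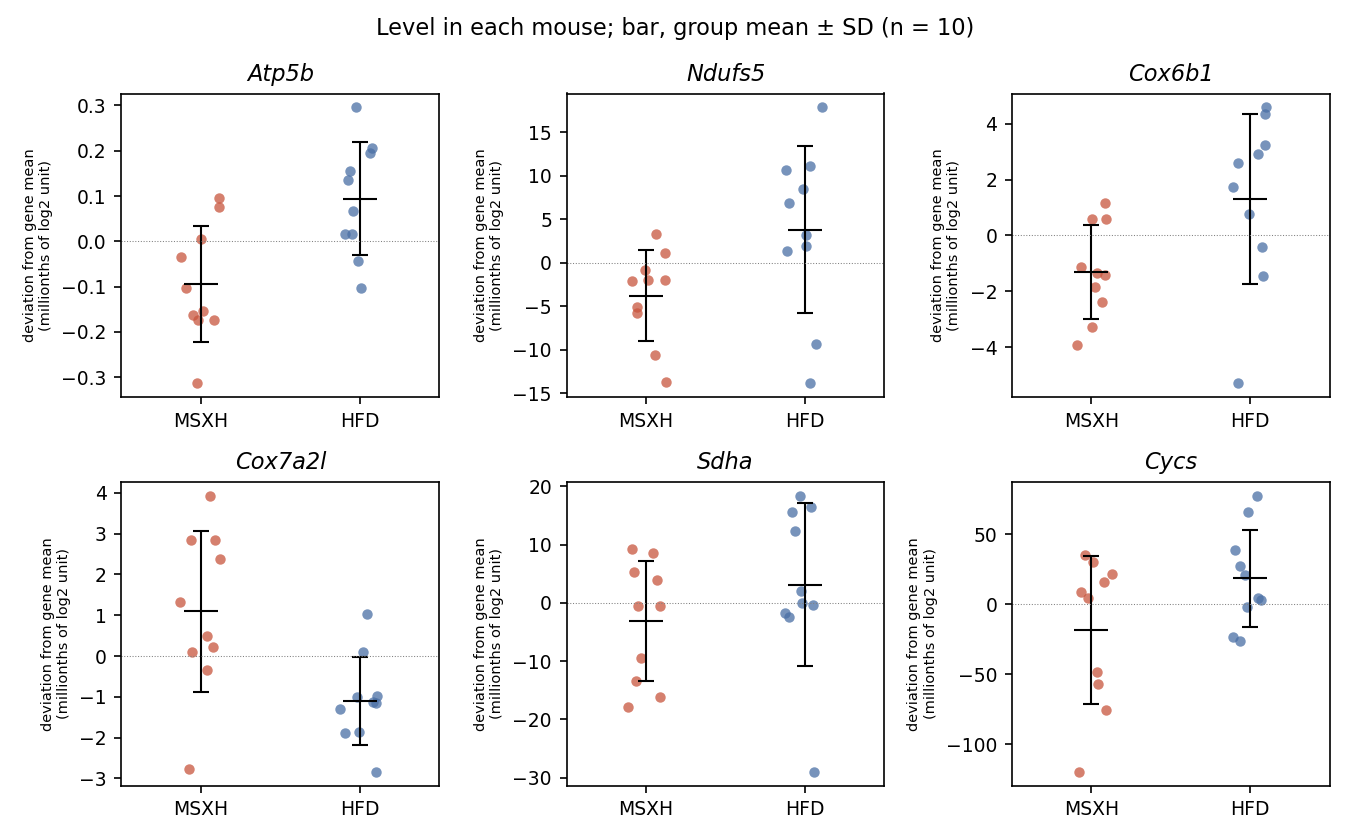
Deviation from the gene's own mean (millionths of a log2 unit) in each MSXH mouse and each HFD mouse for 6 members, with bars for the mean ± SD (n = 10 each); the 6 were picked after their values were seen. All 10 MSXH mice lie below the HFD median for Atp5b, Ndufs5 and Cox6b1 and 9 lie above it for Cox7a2l. The groups overlap in every panel. After shifting arrays to the same median g turned positive for Atp5b, Ndufs5 and Cox6b1, a sign that mostly follows the array offsets.

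To show single mice, each member was scaled by its SD within groups and averaged over its complex. The complex I average ran between -0.726 and 0.250 in MSXH mice (median -0.15) and between -0.850 and 0.735 in HFD mice (median 0.31). The ATP synthase average ran between -0.862 and 0.168 in MSXH mice (median -0.15) and between -0.529 and 0.805 in HFD mice (median 0.26). In both, 10 of 10 MSXH mice lay below the HFD median, while HFD mice reached the lowest value of all for complex I. For complex II, 7 MSXH mice lay below the HFD median, for complex III 8, for Cycs 6 and for complex IV 7. The complex IV means nevertheless were 0.0019 in MSXH mice and -0.0019 in HFD mice. The average over all genes tested lay between -0.239 and 0.225 in MSXH mice and between -0.170 and 0.162 in HFD mice. No p is given for these averages, since the members were chosen with results known.

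**Figure D4:**
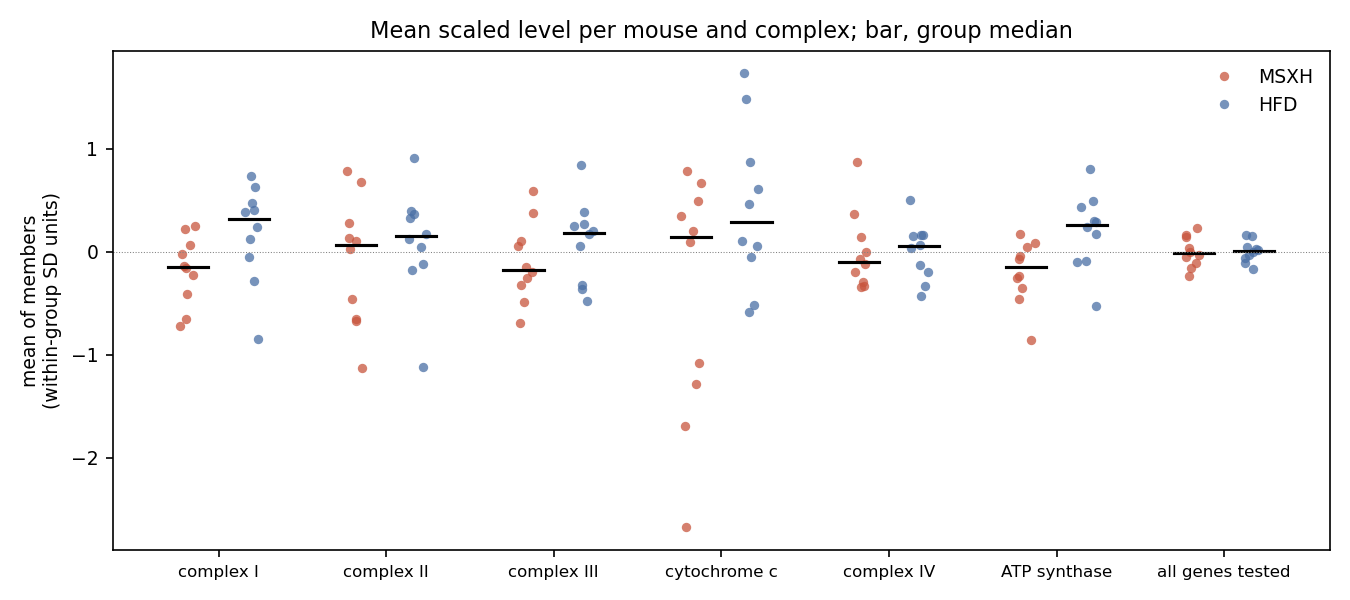
Mean of the members of each complex, scaled by the SD within groups, for each MSXH mouse and each HFD mouse, with group medians as bars. As deposited, MSXH medians lie below HFD medians in each complex, most in complex I (-0.15 and 0.31) and the ATP synthase (-0.15 and 0.26). In complex IV the means are 0.0019 in MSXH mice and -0.0019 in HFD mice. The groups overlap throughout. After shifting arrays to the same median the mean was lower in MSXH in 0 members of each of the 5 complexes. That sign mostly follows the array offsets.

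Co-variation between mice was weak in the values as deposited, whereas after the shift to the same median, which adds one offset per array, the median r was 0.996 between members and 0.878 between all genes tested. Correlations were taken over the 20 mice after the group means were removed, and all points share their array. The median Pearson r between members was 0.10, between members and other genes 0.00, and between all pairs of genes tested 0.01. Of the member pairs 10.4% had r above 0.5, against 5.57% of all pairs. Within complexes this share was 16.9% in complex I, 16.7% in complex II, 8.33% in complex III, 6.67% in complex IV and 8.09% in the ATP synthase. Within complexes the median r was 0.14 in complex I, 0.01 in complex II, 0.07 in complex III, 0.02 in complex IV and 0.10 in the ATP synthase, and between complex I and the ATP synthase it was 0.13. The closest member belonged to the same complex for 23 of 80 members (26.1% would fall there if partners were spread evenly). Different probe sets of 1 gene, which target the same transcripts, had a median r of only 0.39 over 48 members.

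The closest pairs lay both within complex I and across complexes. Ndufa10, an accessory subunit of complex I, had an r of 0.84 with Sdhb of complex II and of 0.84 with Ndufs3 of the complex I core. The 2 probe sets of Ndufa10, however, had an r of only 0.16 with each other. The lowest r of all pairs was -0.76, between Sdhc and Cycs. Here the 2 probe sets of Sdhc had an r of -0.09 with each other, and the 3 of Cycs a median r of 0.81. On the level of complex averages, complex I and the ATP synthase had a Pearson r of 0.78 and a Spearman rho of 0.80 over 20 mice, and complex II and Cycs had an r of -0.62 and a rho of -0.54. Complex I and Cycs had an r of 0.01. Of 11648 other genes, the 3 closest to the average of all members over 20 mice, here with group means kept, were Mdh1 (r = 0.78), Gnmt (0.77) and Shmt2 (0.77). They encode cytosolic malate dehydrogenase, glycine N-methyltransferase and mitochondrial serine hydroxymethyltransferase. They are the extremes of many genes, of which 3.73% had r above 0.5 and 2.82% below -0.5, with a median r of 0.00.

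**Figure D5:**
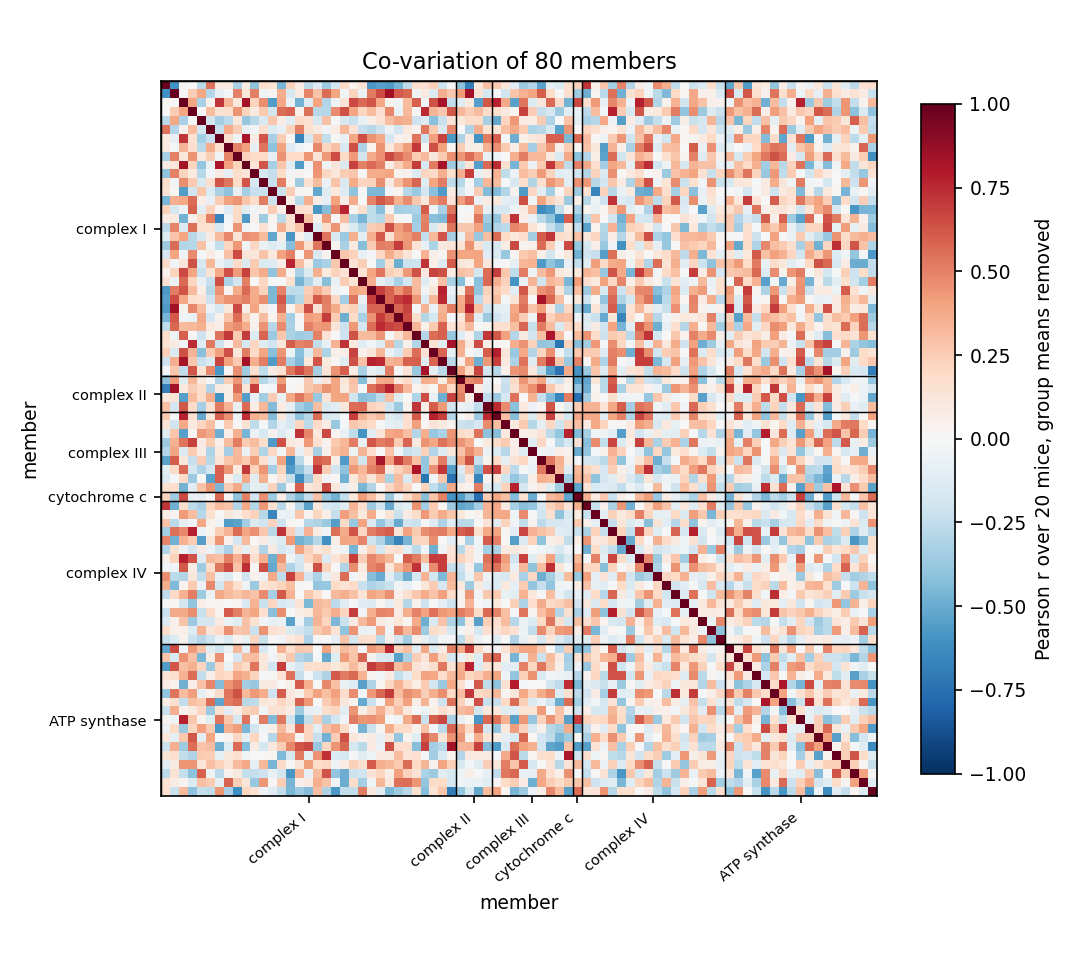
Pearson r between every 2 of the 80 members tested over 20 mice with group means removed, ordered by complex, with lines between complexes, in the values as deposited. Blocks along the diagonal stand out little by median r, which was 0.14 within complex I, 0.10 within the ATP synthase and 0.10 over all member pairs. After shifting arrays to the same median it was 0.996 over member pairs. As deposited, r was above 0.5 in 16.9% of pairs within complex I and 8.09% within the ATP synthase, against 10.4% of all member pairs.

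Neighbouring pathways were described in the same way. All 16 genes tested of the citric acid cycle and its pyruvate dehydrogenase had lower means in MSXH livers, with a median g of -0.37. This compares with 3 of 16 after the shift to the same median and 15 of 16 with genes scaled and arrays centred. After quantile normalization 7 of 13 were lower, where the middle g of -6.4e-12, which is 0 up to rounding, was counted as lower. As deposited, the lowest g of the 16 was -0.98 (-1.91 to -0.05) for Dld, the lipoamide dehydrogenase, and the highest -0.01 for Dlat. Mitochondrial ribosome genes were lower in 55 of 76, with a median g of -0.17, and in 2 of 76 after the shift; Mrpl1 had the lowest g at -0.90 and Mrps24 the highest at 0.96. Assembly factors were lower in 29 of 44, with 6 of 44 after the shift, and ran between -1.04 for Sdhaf2, which helps attach the flavin of Sdha, and 0.65 for Atpaf2. Genes of electron entry were lower in 7 of 11, with 1 of 11 after the shift, and ran between -1.20 for Etfb and 0.54 for Gpd2.

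Genes for mitochondrial transcription and biogenesis were lower in 12 of 20, with 1 of 20 after the shift, and ran between -0.64 for Gabpb1, a GABP subunit, and 0.58 for Esrra, an oestrogen-related receptor. A list of other genes of the inner membrane and its neighbours was lower in 11 of 14, with 0 of 14 after the shift. It included the outer membrane channels Vdac1, Vdac2 and Vdac3 and the soluble ATP synthase inhibitor Atpif1. Among these Ghitm, a protein of the inner membrane, had a g of -1.77 (-2.81 to -0.74), an unadjusted limma p of 0.000537 and an exact Wilcoxon p of 0.00288, and Slc25a4, an ADP/ATP carrier, had the highest g at 0.30. No gene of these lists was called after adjustment, the limma adjusted p of each gene named here being 0.9998.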

How the data were processed

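Livers of 10 MSXH and 10 HFD mice were measured on Affymetrix 3' arrays from 200 ng of total RNA, per the labels' protocols. The deposited values are on a log2 scale, between 5.20 and 15.0 for 45101 probe sets; the background correction and normalization by the authors were not given in the sources used here. No count depth exists for arrays, so precision rests on the 20 arrays. Groups followed the titles. Of the probe sets, 34945 map to 1 gene, 174 of them to members, and 10 further probe sets shared by members and other genes were left out.

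Genes with a mean of at least 6.505 were fitted with limma 3.58.1 in R 4.3.3 and adjusted by Benjamini-Hochberg, beside an exact Wilcoxon test in Python 3.11.15; the fits were tested on simulated data. Members, roles and lists were chosen with earlier results of these data known. Values were given for the members with the lowest and highest g per complex, those with an unadjusted p under 0.05 by limma or the exact Wilcoxon test and 12 core subunits, and for the extremes of each list; promoters, motifs and closest pairs were chosen after values were seen. Alternatives covered scaling, filters, probe sets, the variance model, array weights, a replicate block and single arrays left out.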

Additional observations from a re-analysis of the deposited data

Results flagged for a closer look

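Among 21 members with values in full, 42 sets of 10 mice were searched for a mouse far from the rest of its group, and chance gives such a mouse in about 5% of sets. It was found in 2. For Sdha, HFD replicate 10 lay low, its gap to the next mouse taking 0.561 of the group's range, and without it g was -0.97 in place of -0.48. For Uqcrc1, HFD replicate 4 lay high, with a gap of 0.492 of the range, and without it g was -0.12 in place of -0.31.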

How the results depend on the processing

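No member was called after adjustment under any alternative, the lowest adjusted p being 0.382 for Atp5b with genes scaled and arrays centred, where limma called 3 genes in all. Members with an unadjusted p under 0.05, 2 as reported, numbered 7 by the exact Wilcoxon test, 5 with array weights, 8 with genes scaled and arrays centred, 4 with the mean of all probe sets, 7 without moderation and 1 after quantile normalization. With the replicate number as a block there was 1, and 59 of 80 members stayed lower in MSXH. Replicate numbers did not pair the mice: residuals of equal numbers had r between -0.13 and 0.37, above 0.1 in 3 of 10 pairs, and 2 arrays correlated best with their own number.

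Shifting arrays to the same median moved most values. It left 0 members with an unadjusted p under 0.05 and 1 of 80 members lower in MSXH, with 0 lower in each of complexes I, II, III and IV and the ATP synthase, while 8.93% of all genes were lower. By construction it adds one offset per array, and the median r over mice then became 0.996 between members, 0.963 between members and other genes, 0.878 between all genes, 0.996 within complex I, 0.983 within complex II, 0.998 within complex III, 0.994 within complex IV and 0.999 within the ATP synthase. Quantile normalization left spread in 31 members, of which 15 were lower: 12 in complex I, 1 each in complexes II, III and IV and 0 in the ATP synthase. Those of complex I were 2 of the 2 core and 10 of the 13 accessory subunits left with spread. In the ATP synthase 0 of 1 peripheral stalk, 0 of 2 c-ring and 0 of 2 other membrane genes were lower. With genes scaled and arrays centred, 58 of 80 members were lower. Among them were 4 of 4 peripheral stalk genes, 4 of 4 core and redox subunits of complex III and 5 of 10 complex IV subunits that liver uses. Of the 21 named members, g changed sign in 14 after the shift and in 0 with genes scaled and arrays centred. It changed sign in 3 of 7 after quantile normalization and in 2 with the mean of probe sets.

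Without single arrays, the members lower in MSXH numbered 55 to 63: 27 to 30 in complex I, 2 to 3 in complex II, 6 in complex III, 6 to 9 in complex IV and 11 to 15 in the ATP synthase. Median g lay between -0.40 and -0.19 over all members, -0.44 and -0.20 in complex I, -0.43 and -0.12 in complex II, -0.44 and -0.22 in complex III, -0.12 and 0.14 in complex IV, and -0.51 and -0.15 in the ATP synthase. Members with an unadjusted p under 0.05 numbered 0 to 4: 0 without MSXH replicate 4, 1 without MSXH replicate 5 or HFD replicate 5, 6 or 7, and 4 without MSXH replicate 7 or HFD replicate 3 or 4. Only Sdhb changed sign among the named members, without MSXH replicate 6 or 7.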
